A study of Rattus norvegicus with 18 samples.

Results

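Bdnf, Ntf3, their receptors Ntrk2 and Ntrk3, Igf1 and its receptor Igf1r, and the paired growth factors Ptn and Mdk were followed in rat hippocampus. The members are all probe sets whose platform gene symbol is one of these 8 genes, of 10412 genes named by a probe set of their own, which gave 12 probe sets of the 15923 on the array. The study set rats from a fetal alcohol model beside rats of comparison diets, with RNA measured on 18 arrays. Alcohol diet rats gave 4 naive and 4 trained arrays, isocaloric diet rats 2 naive and 4 trained arrays, and control diet rats 2 naive and 2 trained arrays. Training is written as CFC in the labels, which do not spell it out, and naive rats are those not trained. All groups share the tissue. The labels used here give no strain, sex, age, alcohol dose or time from training to dissection. Nothing in the labels says that arrays of a group came from separate animals or litters, so p-values measure the spread between these arrays, which may be technical.

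Neurotrophins are secreted growth factors that bind Trk receptor tyrosine kinases: Bdnf acts through Ntrk2 (TrkB) and Ntf3 mainly through Ntrk3 (TrkC). In hippocampus, Bdnf is known for its release at active synapses and its part in synaptic strengthening and memory. Igf1 signals through the tyrosine kinase Igf1r and is known for its role in neuronal growth and survival. Pleiotrophin (Ptn) and midkine (Mdk) are related heparin-binding factors that act on the receptor phosphatase Ptprz1, on syndecans and on other cell surface proteins.

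Bdnf is transcribed from several alternative starts, and at least 1 of them is known for its response to neuronal activity through a cyclic AMP response element. The bases upstream of the first and the fourth annotated Bdnf start, in genomic order, are shown because Bdnf expression after training is one of the comparisons below. They are RefSeq sequence of rat build GRCr8, plus strand, at chr3:116619513-116619632 and chr3:116637738-116637857, and capitals mark the core letters TGACG of that element, searched on both strands.
Bdnf start 1: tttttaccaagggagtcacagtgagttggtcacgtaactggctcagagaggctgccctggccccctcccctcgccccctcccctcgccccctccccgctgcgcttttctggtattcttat
Bdnf start 4: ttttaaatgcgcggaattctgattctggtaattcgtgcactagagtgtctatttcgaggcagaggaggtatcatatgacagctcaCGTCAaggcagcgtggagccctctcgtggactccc
The first stretch held 0 matches and the fourth held 1, on the minus strand. TGACG, which also lies within the full element TGACGTCA, was present in 18.2% of 33469 rat windows of 250 upstream bases, and the full element in 1.59%. The printed stretches are shorter, at 120 bases. In their whole windows of 250 bases, TGACG was likewise absent before the first start and present before the fourth, and the full element was absent from both. A match is a description of letters, and the array data do not show which start was used. Only the exact letters were searched, so 0 matches does not show that the first stretch lacks a variant of the element.

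The deposited values are linear signals, already scaled so that arrays share a trimmed mean. Tests ran on log2(signal + 6.06), a scale that understates changes of dim probe sets. Probe sets with a mean under 5.78 on that scale were left out, after which 9520 were tested together, and a call means an adjusted p under 0.05 in limma, two-sided. Of the 12 member probe sets, 8 of 7 genes passed. The second Bdnf probe set, another Ntrk2 probe set and both Igf1 probe sets were too dim, so no Igf1 probe set was among those tested.

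All 7 neuron markers on the array passed the filter, with a summed signal of 8650 to 12700, but so did 4 of 5 markers of thalamus and neighbouring tissue (summed signal 420 to 632 over all 5), so passing does not by itself identify hippocampus. On 4 arrays (alcohol naive 2, alcohol trained 4, isocaloric trained 3 and control trained 1) Ttr, a choroid plexus transcript, was at 5930 to 7330, against 62.5 to 755 on the other 14. Within-group correlations of arrays were 0.952 to 0.985, and no files were identical. In bulk tissue, fewer cells of a type and less RNA per cell cannot be told apart. Alcohol against control and isocaloric against control share the 4 control arrays, so their values are given side by side and not counted as repeats of each other. Where groups are said to overlap or not, the share of all probe sets that do so was not computed. Such separation has no background here and is only described.

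**Figure D1:**
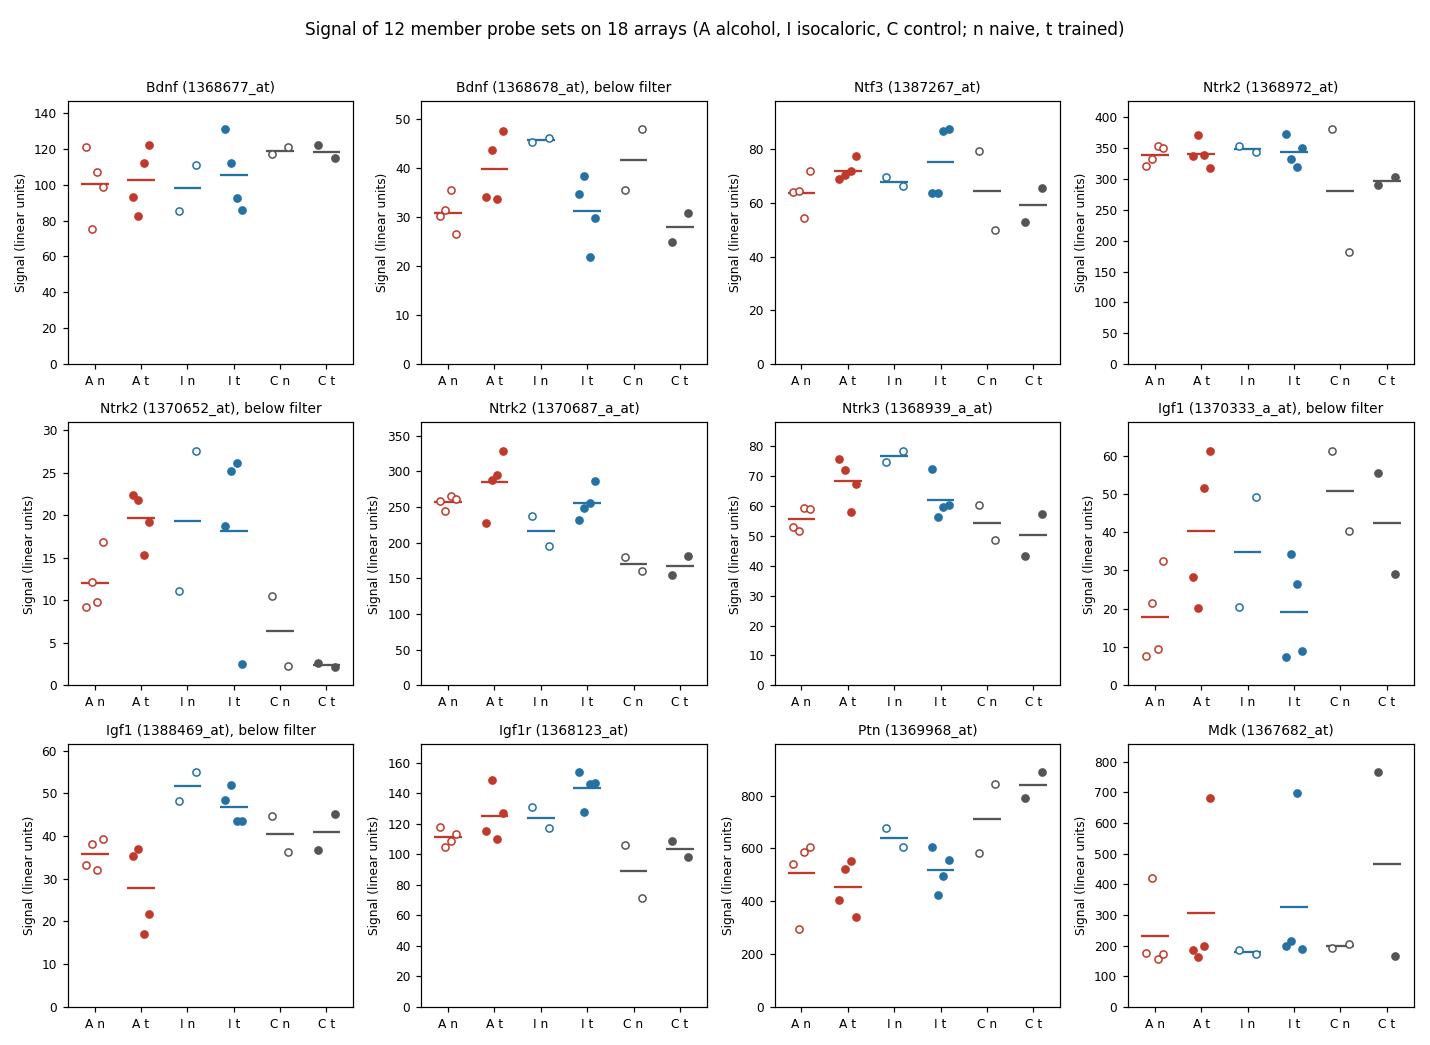
Linear signal (vertical axes from 0, scanner-scaled units) of the 12 member probe sets on 18 arrays, with 1 panel a probe set. Points are arrays (open naive, filled trained), horizontal lines are group means, and red, blue and grey mark the alcohol (A), isocaloric (I) and control (C) diets. Ntrk2 1370687_a_at was at 154 to 182 on control arrays and at 196 or more on all others. The share of all probe sets that separate in this way was not computed.

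Across the 3 diets, calls among these genes lay in the comparisons with the control diet. With alcohol against control, averaged over trained and naive arrays, 1 Ntrk2 probe set and Igf1r were higher and Ptn was lower, 3 of 8 tested member probe sets against a background of 19.9% of all probe sets called. With isocaloric against control, the same Ntrk2 probe set and Igf1r were higher and none was lower, 2 of 8 against a background of 7.05%. The median member change was 0.18 for alcohol and 0.25 for isocaloric against control, beside 0.00 and 0.02 over all probe sets. With alcohol against isocaloric, 0 of 8 were called by limma against a background of 3.06%, and 1 of 8 had an unadjusted p under 0.05 (2065 of all 9520 did). Single arrays weighed on these counts. The alcohol count was 1 without control naive 2. The isocaloric count was 0 without isocaloric naive 1, control naive 2 or control trained 1, was 1 without isocaloric naive 2 or control trained 2, and was 4 without control naive 1. Without the 4 arrays high in Ttr, an alternative chosen after seeing the data, the isocaloric count was 0.

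Bdnf, the main activity-linked neurotrophin of hippocampus, was read by 1 tested probe set, 1368677_at. Its signal was 121, 75.5, 107 and 98.7 on alcohol naive arrays and 93.4, 82.6, 112 and 122 on alcohol trained arrays. Isocaloric naive arrays gave 85.3 and 111, and isocaloric trained arrays 131, 112, 92.5 and 85.9. Control naive arrays gave 117 and 121, and control trained arrays 122 and 115. The 4 control values lay in the upper part of the range and close together, and every diet overlapped with the others. Alcohol against isocaloric gave a log2 change of 0.00 (SE 0.12, 95% interval -0.26 to 0.25, adjusted p = 0.997). Alcohol against control gave -0.23 (SE 0.13, adjusted p = 0.239, 6 of 8 arrays below the control mean) and isocaloric against control -0.23 (SE 0.14, adjusted p = 0.343, 5 of 6 arrays).

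Bdnf did not pass the threshold for training in any diet. The averaged change of trained over naive arrays was 0.04 (SE 0.11, 95% interval -0.19 to 0.26, adjusted p = 0.976), with 5 of 10 trained arrays above the naive mean of their diet. By diet the log2 change was 0.03 in alcohol, 0.09 in isocaloric and -0.01 in control arrays. The dimmer Bdnf probe set, 1368678_at, lay at 26.5 to 35.6 on alcohol naive and 33.6 to 47.5 on alcohol trained arrays, which overlap. On isocaloric arrays the order was the other way, with 45.2 and 46.2 when naive and 21.9 to 38.4 when trained, which do not overlap. Control arrays had the same order as isocaloric ones, with 35.4 and 47.9 when naive and 24.9 and 30.8 when trained, also without overlap. Groups of 2 arrays can fall apart without any change, and the share of all probe sets that do so was not computed. In limma without the filter, the log2 change was -0.50 in isocaloric (adjusted p = 0.808) and -0.49 in control arrays (adjusted p = 0.596). In a fit without the filter on dim probe sets, the training change of this probe set was 0.80 more in alcohol than in isocaloric arrays on the log2 scale (SE 0.28, unadjusted p = 0.0104, adjusted p = 1 in limma). Neither Bdnf probe set was called for training.

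Ntf3, the ligand of Ntrk3, spread from 49.7 to 87.4 over all arrays on 1387267_at. Alcohol arrays ran from 54.2 to 77.4 (median 69.4), isocaloric arrays from 63.5 to 87.4 (median 67.9) and control arrays from 49.7 to 79.3 (median 59.1). The diets overlapped, and no change passed: 0.14 for alcohol against control (SE 0.13, adjusted p = 0.468), 0.21 for isocaloric against control (SE 0.14, adjusted p = 0.361) and -0.07 for alcohol against isocaloric (SE 0.11, adjusted p = 0.777).

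Ntrk2 encodes TrkB both as a full-length kinase and as truncated forms without the kinase domain, and the labels and files do not say which form each of its 3 probe sets reads. On 1370687_a_at the alcohol naive arrays gave 258, 245, 266 and 261, and the alcohol trained arrays 227, 288, 295 and 329. Isocaloric naive arrays gave 237 and 196, and isocaloric trained arrays 232, 249, 256 and 286. Control naive arrays gave 180 and 160, and control trained arrays 154 and 182. All 4 control arrays were below all 14 others, while alcohol and isocaloric arrays overlapped. The share of all probe sets that separate control arrays in this way was not computed. The signal was 1.58-fold higher with alcohol than with control (log2 change 0.66, SE 0.09, 95% interval 0.47 to 0.85, adjusted p = 0.000182, 8 of 8 arrays above the control mean). With isocaloric against control it was 1.38-fold higher (log2 change 0.46, SE 0.10, 95% interval 0.26 to 0.66, adjusted p = 0.012, 6 of 6 arrays). Alcohol against isocaloric gave 0.20 (SE 0.08, 95% interval 0.03 to 0.37, adjusted p = 0.173), so that the order alcohol, isocaloric, control held in the means but its first step did not pass.

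The alcohol call on 1370687_a_at was kept in all 26 alternatives run for it, with log2 changes of 0.57 to 0.75. The isocaloric call was kept in 19 of 24. It was lost without the 4 arrays high in Ttr (0.40, adjusted p = 0.0932) and without isocaloric naive 1 (adjusted p = 0.0605). It was also lost without control naive 2 or control trained 1 (each adjusted p = 0.0694). With the 3' to 5' ratio of the actin control as a covariate it was lost too (0.44, adjusted p = 0.144).

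A second Ntrk2 probe set, 1368972_at, showed no such separation. Alcohol arrays ran from 318 to 371 (median 338) and isocaloric arrays from 319 to 374 (median 347). Control naive arrays gave 381 and 182 and control trained arrays 291 and 304, so that the control group held both the highest and the lowest array. The change was 0.27 with alcohol (SE 0.12, adjusted p = 0.116) and 0.30 with isocaloric against control (SE 0.13, adjusted p = 0.16). The alcohol change was called in 2 of 26 alternatives, both of which leave out control naive 1, the array at 381. The third, 1370652_at, was below the filter, at 9.21 to 22.4 on alcohol, 2.55 to 27.6 on isocaloric and 2.13 to 10.5 on control arrays. Without the filter, 10.5% of 15866 probe sets were called for alcohol against control and 2.81% for isocaloric against control. In that fit 1370652_at passed for alcohol against control (adjusted p = 0.0312, 8 of 12 leave-one-out fits) and not for isocaloric against control (adjusted p = 0.0607). On 3 of its 4 control arrays the signal was under 6.06, the value added before log2; its fold change therefore depends on that value and is not read here as support for the other Ntrk2 probe sets.

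Ntrk3, the TrkC receptor, ran from 51.5 to 75.7 on alcohol arrays (median 59.0), from 56.1 to 78.4 on isocaloric arrays (median 66.2) and from 43.3 to 60.2 on control arrays (median 52.8) on 1368939_a_at. The diets overlapped. The change was 0.37 for isocaloric against control (SE 0.12, adjusted p = 0.0605, 6 of 6 arrays above the control mean) and 0.22 for alcohol against control (SE 0.11, adjusted p = 0.158, 6 of 8 arrays), neither past the threshold.

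By training, Ntrk3 group means had opposite orders in the alcohol and isocaloric diets, without passing a test. Alcohol naive arrays gave 53.0, 51.5, 59.2 and 58.9, and alcohol trained arrays 75.7, 71.8, 57.9 and 67.3. Isocaloric naive arrays gave 74.6 and 78.4, and isocaloric trained arrays 72.1, 56.1, 59.5 and 60.3. Trained isocaloric arrays lay below both naive ones, while 3 of the trained alcohol arrays lay above every naive alcohol array. The difference between the training changes was 0.55 (SE 0.20, 95% interval 0.14 to 0.96, unadjusted p = 0.012, adjusted p = 1 in limma), so it did not pass. On naive arrays, Ntrk3 was at 51.5 to 59.2 with alcohol and at 74.6 and 78.4 with isocaloric diet, a log2 change of -0.42 (SE 0.15, adjusted p = 0.274).

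Igf1, the ligand of Igf1r, was dim on both of its probe sets, and the values below come from the fit without the filter. On 1388469_at the alcohol naive arrays gave 33.1, 38.2, 32 and 39.4, and the alcohol trained arrays 35.3, 37.0, 17 and 21.7. Isocaloric naive arrays gave 48.3 and 55.0, and isocaloric trained arrays 48.5, 52.0, 43.6 and 43.5. Control naive arrays gave 44.7 and 36.2, and control trained arrays 36.8 and 45.2. Every alcohol array was below every isocaloric array, and control arrays overlapped with both. The share of all probe sets with such a separation was not computed. Against a background of 1.36% of all 15866 probe sets called for alcohol against isocaloric, this probe set had a log2 change of -0.58 (SE 0.15, 95% interval -0.90 to -0.27, unadjusted p = 0.00111, adjusted p = 0.0619, 8 of 8 arrays below the isocaloric mean) and was not called. Leaving out single arrays moved the adjusted p from 0.044 to 0.25, and 2 of 14 such fits called it. Alcohol against control gave -0.34 (SE 0.16, adjusted p = 0.206) and isocaloric against control 0.24 (SE 0.18, adjusted p = 0.505).

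The other Igf1 probe set, 1370333_a_at, did not show the same order. It ran from 7.73 to 61.2 on alcohol, from 7.37 to 49.2 on isocaloric and from 29.2 to 61.3 on control arrays. Its change was 0.06 for alcohol against isocaloric (SE 0.34, 95% interval -0.65 to 0.77), and -0.73 and -0.79 for alcohol and isocaloric against control (adjusted p = 0.231 and 0.301). That average joins values of opposite sign, -0.81 on naive arrays (95% interval -1.91 to 0.29) and 0.93 on trained arrays (95% interval 0.03 to 1.83, unadjusted p = 0.0434, adjusted p = 0.363). On trained arrays 1388469_at had -0.69 (95% interval -1.09 to -0.30, adjusted p = 0.139), so the estimates of the 2 Igf1 probe sets had opposite signs there. The training change of 1370333_a_at was 1.74 more in alcohol than in isocaloric arrays (SE 0.67, unadjusted p = 0.0194, adjusted p = 1 in limma).

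Igf1r, the receptor, was at 118, 105, 109 and 113 on alcohol naive and 115, 149, 110 and 127 on alcohol trained arrays (1368123_at). Isocaloric naive arrays gave 131 and 117, and isocaloric trained arrays 154, 128, 146 and 147. Control naive arrays gave 106 and 71.5, and control trained arrays 109 and 98.0. Isocaloric arrays all lay above the control arrays, and alcohol arrays lay between, overlapping with both. How many of all probe sets separate isocaloric from control arrays was not computed. Igf1r was 1.38-fold higher with isocaloric than with control diet (log2 change 0.46, SE 0.11, 95% interval 0.23 to 0.69, adjusted p = 0.0194, 6 of 6 arrays above the control mean). It was 1.23-fold higher with alcohol than with control (log2 change 0.29, SE 0.10, 95% interval 0.08 to 0.51, adjusted p = 0.0491, 8 of 8 arrays). Alcohol against isocaloric gave -0.17 (SE 0.09, adjusted p = 0.293).

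The alcohol call on Igf1r was close to the threshold and held in 7 of 26 alternatives. It was lost on leaving out any single alcohol naive array, alcohol trained 2 or alcohol trained 4. It was also lost with quantile normalisation, median centring, an added constant of 32 or no filter. Without control naive 2, the array at 71.5, the change fell to 0.16 (adjusted p = 0.369), and without control trained 1 or control trained 2 the adjusted p was 0.0901 and 0.167. The isocaloric call held in 16 of 24 alternatives, and without control naive 2 the change was 0.33 (adjusted p = 0.159).

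Ptn gave the only lower call. On 1369968_at the alcohol naive arrays gave 540, 294, 588 and 606, and the alcohol trained arrays 404, 521, 553 and 341. Isocaloric naive arrays gave 676 and 606, and isocaloric trained arrays 604, 424, 494 and 556. Control naive arrays gave 582 and 843, and control trained arrays 790 and 890. Of the control arrays, 3 lay above every array of the other diets, and control naive 2 and both trained arrays were the 3. Ptn fell by 0.71 on the log2 scale with alcohol against control (SE 0.17, 95% interval -1.06 to -0.35, adjusted p = 0.00835, 8 of 8 arrays below the control mean). With isocaloric against control the change was -0.41 (SE 0.18, 95% interval -0.80 to -0.03, adjusted p = 0.165, 6 of 6 arrays), and with alcohol against isocaloric -0.30 (SE 0.15, 95% interval -0.62 to 0.03, adjusted p = 0.27). With the Gapdh 3' to 5' ratio as a covariate, isocaloric against control was -0.79 and called (adjusted p = 0.00469), and alcohol against isocaloric was 0.08 (adjusted p = 0.769), so a difference of Ptn between the alcohol and isocaloric diets was not shown and its sign depended on that covariate. The alcohol call was kept in 25 of 26 alternatives and lost without control naive 2 (-0.58, adjusted p = 0.0798). Alcohol naive 2, the lowest array, is among those high in Ttr, and without those 4 arrays the alcohol change was -0.57 (adjusted p = 0.0299).

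**Figure D2:**
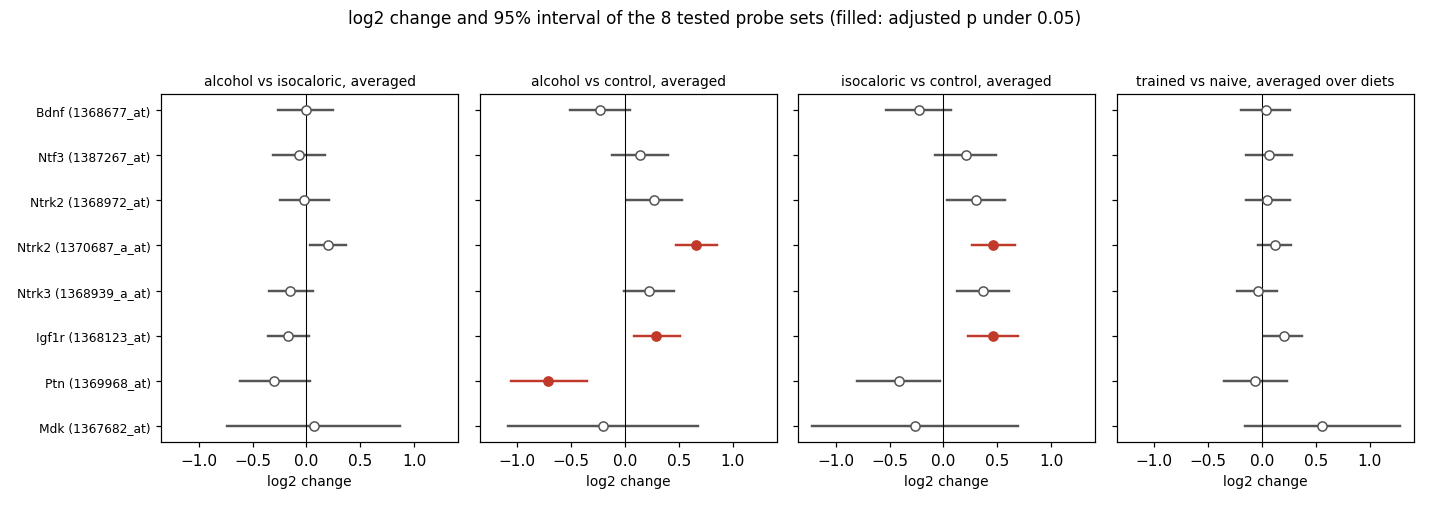
Log2 change (points) and 95% interval (lines) of the 8 tested member probe sets in the 3 averaged diet comparisons and the averaged training comparison, on the log2(signal + 6.06) scale. Filled red points are calls, and they are Ntrk2 1370687_a_at and Igf1r in both comparisons with control and Ptn in alcohol against control.

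Mdk, the relative of Ptn, separated single arrays and not diets. On 1367682_at it was at 422 on alcohol naive 2, 683 on alcohol trained 4, 697 on isocaloric trained 3 and 767 on control trained 1. On the other 14 arrays it was at 157 to 215 (median 186). The 4 high arrays are the 4 that were high in Ttr, and the signals do not overlap. Of 8 choroid plexus markers on the array, 7 were above on those arrays with no overlap, while Prlr overlapped. Ttr is among the 7, and those arrays were chosen by Ttr, so its separation was fixed in advance. The others include Folr1 (231 to 346 against 48.9 to 88.2) and Sostdc1 (265 to 672 against 28.8 to 47.9). Kl separated only barely (16.3 to 31.8 against 1.09 to 16.2), and Kl and Kcne2 were below the filter. None of the other 11 member probe sets separated those arrays. The share of all probe sets that separate them was not computed, so the marker and member counts have no background here. Mdk did not pass in any comparison, with wide intervals (alcohol against isocaloric 0.07, 95% interval -0.74 to 0.87; trained against naive 0.56, 95% interval -0.16 to 1.28, adjusted p = 0.905). Of the 4 arrays, 3 were trained. Without the 4 arrays the training change of Mdk was 0.01 (adjusted p = 0.999), alcohol against control gave -0.05 (adjusted p = 0.758) and isocaloric against control 0.06 (adjusted p = 0.786).

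**Figure D3:**
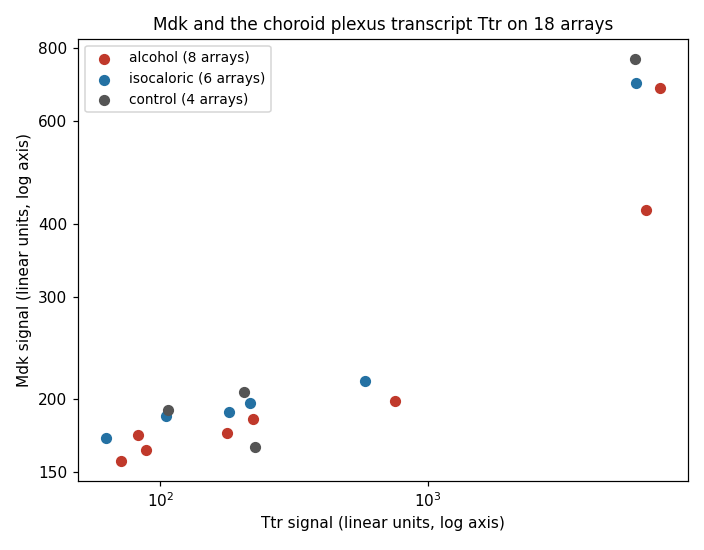
Mdk signal against Ttr signal, both linear units on log axes, with 1 point an array and colour for diet. The 4 arrays with Ttr at 5930 or more had Mdk at 422 to 767, and the other 14 had Mdk at 157 to 215.

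Training gave no member call. Averaged over diets, 0 of 8 were called by limma against a background of 0.0105% (1 of 9520), and 1 of 8 had an unadjusted p under 0.05 (566 of all 9520 did). That 1 was Igf1r, with a change of 0.20 (SE 0.08, 95% interval 0.02 to 0.37, unadjusted p = 0.0298, adjusted p = 0.78, 9 of 10 trained arrays above the naive mean of their diet). Within alcohol arrays 0 of 8 were called (background 0%), and 1 of 8 had an unadjusted p under 0.05 (818 of all 9520 did). Within isocaloric arrays 0 of 8 were called (background 0%), with 0 of 8 unadjusted (678 of 9520). Within control arrays 0 of 8 were called (background 0.0315%), with 0 of 8 unadjusted (1036 of 9520). Ptn had a change of -0.06 with training (SE 0.14, adjusted p = 0.972) and Ntrk2 1370687_a_at one of 0.12 (SE 0.07, adjusted p = 0.906).

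Split by training, alcohol against isocaloric gave 0 of 8 called on naive arrays (background 0.0735%). There 1 of 8, Ntrk3, had an unadjusted p under 0.05, beside 1182 of all 9520 probe sets. On trained arrays 0 of 8 were called (background 0.399%), with 0 of 8 unadjusted (1401 of 9520). The difference of the training change between alcohol and isocaloric arrays gave 0 of 8 called (background 0%). Unadjusted, 1 of 8 passed there, again Ntrk3, beside 401 of 9520. With so few calls among all probe sets, the called counts say little about the members.

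Other genes of the pathways were taken from 4 lists with 85 genes, of which 63 were on the array and 47 were tested, each by its brightest probe set. With alcohol against control, 7 rose and 2 fell (median 0.04, beside 0.00 over all probe sets). With isocaloric against control, 2 rose and 0 fell (median 0.02, beside 0.02), and with alcohol against isocaloric, 2 rose and 0 fell (median -0.01, beside -0.02). These are 19.1%, 4.26% and 4.26% of the 47, beside 19.9%, 7.05% and 3.06% of all probe sets called in the same comparisons, so the counts are near the background or below it. With training averaged over diets, 0 of 47 were called. The alcohol count of 9 was 3 without control naive 2, 4 without control trained 1 or control trained 2, and 3 without the 4 arrays high in Ttr. The isocaloric count of 2 ran from 0 (without isocaloric naive 2, control naive 2 or control trained 2) to 5 (without control naive 1), and was 1 without isocaloric naive 1 or control trained 1. The count of alcohol against isocaloric was 0 without isocaloric naive 1 or isocaloric naive 2 and 1 without alcohol naive 3.

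Of 9 tested receptors and partners of Ptn and Mdk, 4 were called for alcohol against control (44.4%, beside the 19.9% of all probe sets), a description of a short list and not a test of it. For isocaloric against control 0 of 9 were called (beside 7.05%), and for alcohol against isocaloric 1 of 9 (11.1%, beside 3.06%). The changes named next are for alcohol against control. Ptprz1, the receptor phosphatase that binds Ptn, fell by 0.27 on the log2 scale (SE 0.09, adjusted p = 0.0419), and a second Ptprz1 probe set, 1388015_at, fell by 0.52 (adjusted p = 0.0111). Sdc3, the neuronal syndecan, rose by 0.60 (SE 0.15, adjusted p = 0.0117), while its other probe set, 1372180_at, had 0.25 (adjusted p = 0.214). Gpc1, a heparan sulfate proteoglycan of the cell surface, rose by 0.38 (SE 0.08, adjusted p = 0.00314), and Lrp1, an endocytic receptor, rose by 0.32 (SE 0.10, adjusted p = 0.0273). Gpc1 was also higher with alcohol than with isocaloric diet, by 0.33 (SE 0.07, adjusted p = 0.0199), and Ptprz1 1388015_at was lower there by a log2 change of -0.52 (adjusted p = 0.0262). The brighter Ptprz1 probe set was not called in that comparison. For isocaloric against control, Ptprz1 1388015_at had a log2 change of 0 (adjusted p = 0.992).

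Among IGF and insulin genes, 1 of 9 tested (11.1%) was called in each comparison with control, beside 19.9% and 7.05% of all probe sets. The neurotrophin list had 2 of 18 called with alcohol (11.1%) and 1 with isocaloric diet (5.56%), and the shared kinases 2 of 11 with alcohol (18.2%) and 0 with isocaloric diet, all below the same background. The IGF call was Igfbp7, an IGF-binding protein known from vessel walls, which rose by 0.66 with alcohol (SE 0.10, adjusted p = 0.000354) and by 0.42 with isocaloric diet (SE 0.10, adjusted p = 0.0253). Among the neurotrophin genes, Plat rose by 0.34 with alcohol (adjusted p = 0.0263) and by 0.41 with isocaloric diet (adjusted p = 0.0314). Plat is the protease known to turn plasminogen into plasmin, which can process proBDNF. Sort1, the sorting receptor that binds proBDNF, rose by 0.20 with alcohol against control (adjusted p = 0.0495), and its second probe set, 1371004_at, by 0.70 (adjusted p = 0.0029). Among the shared kinases, Pdpk1, the kinase that activates Akt, fell by 0.21 with alcohol against control (adjusted p = 0.0261), while its second probe set had -0.08 (adjusted p = 0.641). Akt2, a kinase downstream of these receptors, was the other call there, at 0.22 (adjusted p = 0.0466). Its probe set 1368832_at was higher with both alcohol (0.39, adjusted p = 0.0175) and isocaloric diet (0.48, adjusted p = 0.0213) than with control. Another Akt2 probe set, 1387353_at, was called with alcohol (0.35, adjusted p = 0.036) but not with isocaloric diet (0.25, adjusted p = 0.216). Map2k2, a MAP kinase kinase, was higher with alcohol than with isocaloric diet by 0.29 (SE 0.07, adjusted p = 0.0262).

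**Figure D4:**
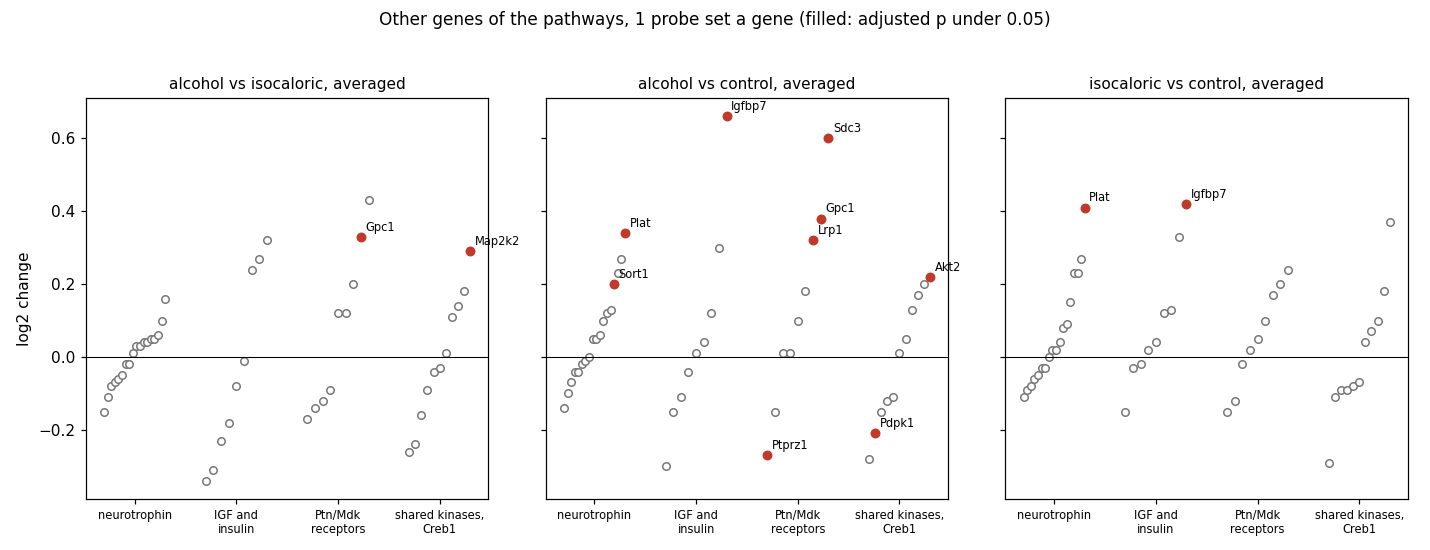
Log2 change (vertical axis, log2(signal + 6.06) scale) of the 47 tested pathway genes in the 3 averaged diet comparisons, grouped by list and ordered by change within a list, with 1 point a gene. Filled red points are calls: 9 for alcohol against control, 2 for isocaloric against control and 2 for alcohol against isocaloric.

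Vessel markers moved with the diets compared with control. Of 7 endothelial and mural markers on the array, 5 were tested and all 5 were higher with alcohol (median 0.79) and with isocaloric diet (median 0.88), beside 19.9% and 7.05% of all probe sets called. Their summed signal was 815 to 1010 on alcohol, 836 to 973 on isocaloric and 508 to 561 on control arrays, and Pecam1 and Abcb1a were below the filter. Their part in the changes of Ntrk2, Igf1r, Ptn, Plat and Igfbp7 was not tested. Astrocyte markers gave 1 lower of 7 tested in each comparison with control, with summed signals of 11200 to 15300, 11500 to 14200 and 13100 to 16800 on alcohol, isocaloric and control arrays. Of the other lists, 1 of 7 neuron markers was higher with alcohol against control and 1 against isocaloric, 1 of 7 astrocyte markers was higher with alcohol against isocaloric, 1 of 6 microglia markers was lower with isocaloric against control and 1 of 4 meninges markers was lower with alcohol against control. Each of these is a single call, beside 19.9%, 7.05% and 3.06% of all probe sets called for alcohol against control, isocaloric against control and alcohol against isocaloric. Oligodendrocyte, choroid plexus and thalamus lists had 0 calls in the 3 diet comparisons, and choroid plexus shares Igf2 and Igfbp2 with the IGF list. The log2 3' to 5' ratio of the actin control had means of 0.40, 0.41 and 0.64 for alcohol, isocaloric and control arrays. Control arrays ran from 0.54 to 0.73, above isocaloric arrays (0.32 to 0.51) but overlapping with alcohol arrays (0.19 to 0.67). With that ratio as a covariate the Ntrk2 and Ptn alcohol calls were kept, the Igf1r alcohol call was lost (adjusted p = 0.245), and both isocaloric calls were lost (adjusted p = 0.144 for Ntrk2 1370687_a_at and 0.161 for Igf1r). The Gapdh ratio was lower on isocaloric arrays, at 0.06 to 0.18 (mean 0.13), than on control arrays, at 0.19 to 0.36 (mean 0.26), with no overlap, and alcohol arrays ran from 0.09 to 0.48 (mean 0.26). With the Gapdh ratio as a covariate the Igf1r alcohol call was lost (adjusted p = 0.0523), the other 4 calls were kept, and Ptn was called for isocaloric against control.

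The genes whose pattern over the 18 arrays was most like each member, by Pearson r with the brightest tested probe set, are given as a description, since arrays share diet and preparation. Bdnf was nearest to Akip1 (0.792), Mro (0.778) and Hddc3 (0.773), and Ntf3 to Tbl1xr1 (0.809), Abcg4 (0.806) and C2cd5 (0.788). Ntrk2 1368972_at was nearest to Syn1 (0.939), Efr3b (0.936) and Dpysl5 (0.932), and Ntrk3 to Eml4 (0.839), Acin1 (0.822) and Elfn2 (0.8). Igf1r was nearest to Xpo5 (0.894), Rai1 (0.875) and Hnrnpu (0.84), and Ptn to Stk32c (0.874), Rnf128 (0.872) and Tsc22d3 (0.866). Mdk was nearest to Sostdc1 (0.985), Slc4a2 (0.983) and Enpp2 (0.981), and without the 4 arrays high in Ttr these values were 0.196, 0.457 and 0.465. The likeness of those 3 genes to Mdk therefore rests on those 4 arrays.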

How the data were processed

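RNA from rat hippocampus was measured on 18 arrays in 6 diet by training groups. The authors deposited linear intensity values, 1 per probe set and array; MAS5 is named in the submitters' processing notes of 2 arrays (control naive 1 and control trained 2), and the steps for the others are not given in the sources used here. One description spelled "Icocaloric" was read as isocaloric. Gene symbols came from the platform annotation of the value table. From there, log2(intensity + 6.06) was taken, 6.06 being the 10th percentile of all values. Control probe sets and those with a mean under the 40th percentile were left out. R 4.3.3 with limma 3.58.1 fitted all 6 group means in 1 model (lmFit, eBayes with a trend on mean level), and p-values were adjusted over all 9520 probe sets tested (Benjamini-Hochberg, threshold 0.05, two-sided). Averaged contrasts weight naive and trained, or the 3 diets, equally. The code was tested on simulated data. The number of arrays limits the precision.

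Members, gene lists and tests were chosen with earlier results of these data known, so no list is independent evidence. Every member probe set is described; pathway genes are named where called, at most 5 with the smallest adjusted p per direction and comparison, by their brightest probe set, and second probe sets of a named gene are given where they bear on it. Sort1 and Akt2 lie outside this rule and were named after their values were seen. The 3 genes nearest each member by Pearson r are named. Alternatives changed the added constant, the filter, the scaling, the samples in the fit, array weights, a replicate block, RNA quality covariates, the eBayes trend and the arrays left out. Promoter bases are from RefSeq, build GRCr8, which had windows for 5 of the 8 members.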

Additional observations from a re-analysis of the deposited data

Results flagged for a closer look

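In groups of 4 arrays, 1 array stood far from the others of its group in 4 of 36 group and probe set pairs checked. The rule flags about 1 in 20 only if values are normal and independent, which pairs on the same arrays are not. The share over all probe sets was not computed, so this count has no background here. Ptn was 294 on alcohol naive 2, and 540 to 606 on the other 3 arrays of that group. Mdk was 422 on alcohol naive 2 against 157 to 175, 683 on alcohol trained 4 against 164 to 199, and 697 on isocaloric trained 3 against 190 to 215. The 3 Mdk arrays are among the 4 with high Ttr signal, and the low Ptn array is one of these too. Of 24 differences between diets in the training change, 0 passed the threshold.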

How the results depend on the processing

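Of 32 alternatives, none changed the sign of the 5 called member results. Of 75 uncalled member results, 43 changed sign in at least 1 alternative and 7 were called in at least 1. Alcohol against control called 3 member probe sets, 5 without the 2 arrays noted as MAS5, and 1 to 4 leaving out single arrays. Isocaloric against control called 2, then 1 with only the groups compared, 0 with the actin ratio as a covariate, 3 with the Gapdh ratio (adding Ptn) or with no eBayes trend (adding Ntrk3), 4 without the 2 arrays noted as MAS5, 0 without the arrays high in Ttr, and 0 to 4 leaving out single arrays. Training called 0 on average and 0 to 1 leaving out single arrays; in control arrays it called 0, 1 without the 2 arrays noted as MAS5, and 0 to 1 leaving out single arrays. The cause of these shifts was not tested, beyond fewer arrays in some fits. Deviations from group means had a median r of -0.0264 over 36 pairs of same-numbered arrays of different groups (4 over 0.1). For differently numbered arrays it was 0.00812 over 96 pairs (22 over 0.1). In groups of 2 arrays the deviations mirror each other, so these values cannot exclude pairing by number. With the replicate block, alcohol against control called 2 and isocaloric against control 2 member probe sets. Igf1r was then no longer called for alcohol (0.31, adjusted p = 0.0846). Over all probe sets, centring arrays on their median moved the split of higher and lower calls to 559 and 73 for alcohol against isocaloric (140 and 151 as deposited), 834 and 965 for alcohol against control (1075 and 820), and 232 and 982 for isocaloric against control (404 and 267), and moved the median change of the last from 0.02 to -0.09. Counts over all probe sets ran from 15 (without isocaloric naive 2) to 1207 (array weights) around 291 for alcohol against isocaloric, from 315 (actin ratio) to 3024 (without control naive 1) around 1895 for alcohol against control, from 38 (actin ratio) to 2362 (without control naive 1) around 671 for isocaloric against control, and from 0 to 123 (without control naive 1) around 1 for training.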
